A study of Mus musculus with 6 samples.

Results

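The 10 genes described here, Stab1, Stab2, Lyve1, Mrc1, Fcgr2b, Clec4g, Bmp2, Wnt2, Rspo3 and Gata4, are known from the endothelium that lines the sinusoids of the liver. They were chosen by name, with earlier results of these data known, and all 10 were present among the 16623 genes of the expression table. Livers of 3 wild-type mice and 3 SIRT7-/- mice, aged 5 to 6 months, were profiled by droplet single-cell RNA sequencing, which counts unique molecular identifiers (UMIs) from the 3′ ends of transcripts. SIRT7 is a nuclear deacylase of the sirtuin family, and neither genotype carried a further allele or treatment in the labels. For each library 3000 hepatocytes and 3000 non-parenchymal cells, obtained by collagenase perfusion, had been mixed, so the share of a cell type reflects that mixture and not the liver. Levels are given as CP10K, the UMIs of a gene per 10000 UMIs of the cell, averaged over the cells of a mouse.

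The sinusoidal endothelium is a fenestrated lining without a continuous basement membrane. Its cells take up waste macromolecules from blood through scavenger receptors and endocytic lectins, and they release angiocrine factors, which are signals from endothelium that act on neighbouring hepatocytes. Wnt ligands and R-spondins from the endothelium near the central vein maintain the gene programme of pericentral hepatocytes, and Bmp2 induces hepcidin, the hormone that limits iron export. Stab1 and Stab2 encode the stabilins, receptors for oxidised lipoprotein and, for stabilin-2, hyaluronan. Lyve1 encodes a hyaluronan receptor also known from lymphatic vessels and some macrophages. Mrc1 encodes the mannose receptor, Fcgr2b the inhibitory receptor for IgG that clears small immune complexes, and Clec4g the C-type lectin LSECtin. Gata4 encodes a transcription factor of the sinusoidal endothelial programme.

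The table held 11610 cells, 3270 wild-type and 8340 SIRT7-/-, with 552 to 5609 cells and 2511947 to 11069411 UMIs per library. Median UMIs per cell ranged from 1630 to 3875, and 13 cell barcodes were shared between libraries. Sirt7 itself averaged 0.718, 0.512 and 0.546 CP10K over all wild-type cells of mice 1, 2 and 3 but 0.10, 0.0814 and 0.139 CP10K over those of the SIRT7-/- mice, so the genotypes did not overlap, and some UMIs of the gene remained in every SIRT7-/- library. Clustering gave 10 cell classes, and the 519 endothelial-like cells formed 1 of them.

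In the GENCODE annotation of GRCm38, 8 members lie on the minus strand: Stab1 at chr14:31139013-31168641, Gata4 at chr14:63198922-63271692, Stab2 at chr10:86841198-87008025, Rspo3 at chr10:29452416-29535867, Lyve1 at chr7:110850607-110863239, as well as Fcgr2b at chr1:170958617-170976547, Clec4g at chr8:3707064-3720651 and Wnt2 at chr6:17988940-18030585. The other two, on the plus strand, are Mrc1 at chr2:14229392-14332057 and Bmp2 at chr2:133552159-133562885.

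The promoters printed (RefSeq, build GRCm38.p6), from 250 bases before to 50 bases after the annotated start, are the 4 of 6 held in which an ETS-type motif was found. The capitals mark AGGAAG on either strand (in reverse complement it is read as CTTCCT), the core of many ETS-family sites.
Clec4g, chr8:3720602-3720901, minus strand: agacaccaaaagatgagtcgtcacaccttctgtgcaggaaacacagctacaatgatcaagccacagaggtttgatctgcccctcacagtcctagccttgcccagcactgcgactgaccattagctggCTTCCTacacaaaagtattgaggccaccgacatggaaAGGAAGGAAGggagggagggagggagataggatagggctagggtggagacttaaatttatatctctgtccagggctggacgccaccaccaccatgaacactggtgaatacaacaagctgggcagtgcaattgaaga
Stab1, chr14:31168592-31168891, minus strand: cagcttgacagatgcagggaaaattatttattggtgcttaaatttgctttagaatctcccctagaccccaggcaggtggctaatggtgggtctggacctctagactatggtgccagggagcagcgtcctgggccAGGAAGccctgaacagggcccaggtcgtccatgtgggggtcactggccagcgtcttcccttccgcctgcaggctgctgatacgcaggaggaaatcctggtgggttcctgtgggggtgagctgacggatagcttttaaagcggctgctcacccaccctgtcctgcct
Stab2, chr10:87007893-87008192, minus strand: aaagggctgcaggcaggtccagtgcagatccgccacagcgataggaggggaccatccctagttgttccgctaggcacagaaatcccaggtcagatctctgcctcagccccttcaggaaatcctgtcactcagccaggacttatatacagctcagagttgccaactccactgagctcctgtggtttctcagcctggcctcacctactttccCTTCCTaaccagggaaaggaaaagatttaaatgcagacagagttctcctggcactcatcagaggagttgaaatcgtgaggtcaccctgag
Mrc1, chr2:14229164-14229463, plus strand: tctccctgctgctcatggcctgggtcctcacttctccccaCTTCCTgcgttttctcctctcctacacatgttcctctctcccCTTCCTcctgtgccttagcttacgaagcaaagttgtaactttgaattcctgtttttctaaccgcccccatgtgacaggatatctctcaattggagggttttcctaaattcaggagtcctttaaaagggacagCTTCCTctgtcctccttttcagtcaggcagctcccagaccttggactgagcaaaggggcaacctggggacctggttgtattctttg
The windows of Fcgr2b and Wnt2 held no match and are not shown. Those of Lyve1, Bmp2, Rspo3 and Gata4 were not among the promoters held and were not searched. A share of 4 of 6 members stands against 35.4% of 32851 promoters of the same length. Clec4g and Mrc1 each held 3 matches, of which a pair in Clec4g overlapped, and Stab1 and Stab2 each held 1. A sequence of the kind bound by factors such as Gata4, spelled AGATAA and searched on both strands in the same way, occurred in 0 of the 6 windows and in 11.2% of all promoters. Such matches describe the letters in these windows only.

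Endothelial-like cells were named from 12 other endothelial genes, and the 10 members were kept out of the clustering. All 12 of those markers were detected in each of the 6 mice, with a summed level of 123 to 161 CP10K in the 5 mice used for comparison and 260 CP10K in SIRT7-/- mouse 3. The class held 67, 107 and 88 cells in the wild-type mice and 192, 57 and 8 cells in the SIRT7-/- mice. That was 5.39%, 11.5% and 8.04% of wild-type cells and 3.42%, 2.62% and 1.45% of SIRT7-/- cells, and every wild-type share was above every SIRT7-/- share (two-sided exact permutation p = 0.1, which is the lowest possible with 3 against 3 mice). Macrophage-like cells made up 4.42%, 4.93% and 22.3% of wild-type and 47.3%, 29.1% and 15.2% of SIRT7-/- cells. Among cells other than macrophage-like, an alternative chosen after seeing the data, the endothelial-like share was 5.64%, 12.1% and 10.4% in wild-type and 6.49%, 3.69% and 1.71% in SIRT7-/- mice, and the genotypes overlapped (two-sided exact permutation p = 0.2). A change in endothelial cells, in other cells and in their recovery cannot be told apart. SIRT7-/- mouse 3, with 8 endothelial-like cells, was left out of the genotype comparison in this class, and its values are given beside the others.

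Of the 10 members, 9 had their highest mean level in endothelial-like cells, and Rspo3 had it in stellate-like cells. Within endothelial-like cells, Fcgr2b stood highest at 27.0 CP10K ± 5.06 (SD over 5 mice). Clec4g followed at 18.6 ± 3.33 CP10K, Bmp2 at 17.3 ± 3.71 CP10K, Mrc1 at 14.3 ± 4.31 CP10K, Stab1 at 13.5 ± 3.13 CP10K and Stab2 at 11.1 ± 2.91 CP10K. Wnt2 at 2.91 ± 0.441 CP10K, Lyve1 at 1.91 ± 1.38 CP10K, Gata4 at 1.87 ± 0.357 CP10K and Rspo3 at 0.542 ± 0.543 CP10K formed a lower tier. Neighbours in each tier differed by less than the larger of their SDs, except that Fcgr2b exceeded Clec4g and Gata4 exceeded Rspo3 by more than either SD. These are shares of 3′-end UMIs, which are not scaled by gene length.

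**Figure D1:**
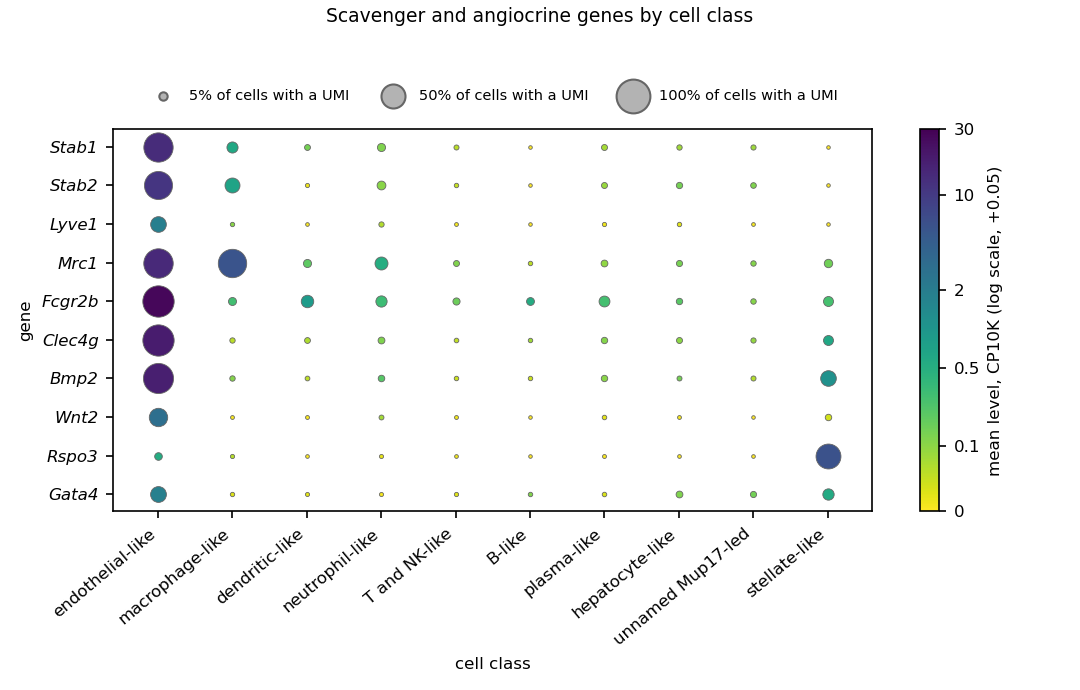
Mean level (colour, CP10K on a log scale with 0.05 added) and share of cells with at least 1 UMI (dot area) of the 10 genes in each cell class; colours are means over mice with at least 20 cells of the class, except in the 39 stellate-like cells, which were pooled over mice. The endothelial-like column is darkest for every gene but Rspo3, and Mrc1 is also dark in macrophage-like cells.

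How restricted a member was to endothelial-like cells depended on whether the 39 stellate-like cells were counted. Among 1972 genes with at least 1 CP10K in the class, ranked by the ratio of its level to the highest other class with at least 20 cells in a mouse (0.05 CP10K added to both), which leaves stellate-like cells out, Clec4g ranked 1 with a ratio of 107 and Bmp2 ranked 9 with 64.1. With the pooled stellate-like cells included, the ratios were 27.7 for Clec4g, which rests on 3 stellate UMIs, 14.3 for Bmp2 and 3.10 for Gata4, and Fcgr2b had the highest ratio of the members. Without stellate-like cells the ratios of the other members were 29.3 for Fcgr2b, 24.6 for Wnt2, 20.8 for Stab1, 15.2 for Stab2, 12.6 for Lyve1, 9.78 for Gata4 and 2.54 for Mrc1. The 10 non-members with the highest ratios, stellate-like cells left out, were Kdr (the VEGF receptor VEGFR2; 103), Aqp1 (a water channel; 97.6), Sparc (80.4), Ptprb (74.4), Gpihbp1 (73.0), Tspan7 (68.7), Igfbp7 (67.2), Ramp2 (62.9), Cyp26b1 (a retinoic acid hydroxylase; 62.0) and Mmrn2 (61.8). Sparc, Igfbp7, Tspan7 and Ramp2 fell to 0.98, 0.527, 10.9 and 5.57 with stellate-like cells included, and the other 6 kept their ratios. Kdr, Aqp1 and Ptprb were also among the markers that named the class.

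Detection followed the levels. A Fcgr2b UMI was seen in 86.1% of the 519 endothelial-like cells, a Clec4g UMI in 85.7%, Bmp2 in 79.4%, Mrc1 in 75.7%, Stab1 in 75.0% and Stab2 in 68.8%. Wnt2 was seen in 28.9%, Gata4 in 21.0%, Lyve1 in 20.6% (95% exact binomial interval 17.2% to 24.4%, counting error only) and Rspo3 in 4.05% (2.52% to 6.12%). In T and NK-like cells, which should lack these genes, a Clec4g UMI was seen in 0.760% of cells and a Lyve1 UMI in 0.152%, at a median of 1573 UMIs per cell against 1358 in endothelial-like cells. With every cell thinned to 1000 UMIs, which left 343 endothelial-like cells, the shares in endothelial-like cells were 79.9% for Clec4g and 12.2% for Lyve1.

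Most endothelial-like cells carried several members at once. The median was 6 of the 10 genes, 377 cells (72.6%) had UMIs of at least 5, 48 cells had UMIs of all 6 scavenger genes, and 1 cell had none of the 10. The median per mouse was 7, 6 and 5 members in wild-type mice 1, 2 and 3 (median 2532, 1897 and 1055.5 UMIs). It was 5, 6 and 7.5 in SIRT7-/- mice 1, 2 and 3 (946.5, 1164 and 2142 UMIs). Deeper mice mostly had higher medians, but SIRT7-/- mouse 3, with 8 cells, stood above the deeper wild-type mouse 1.

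Mrc1 and the stabilins also gave UMIs in macrophage-like cells, in which Mrc1 is a known receptor of Kupffer cells. Mrc1 stood there at 6.67, 5.70 and 4.93 CP10K in wild-type and at 6.61, 5.43 and 4.18 CP10K in the SIRT7-/- mice. Stab2 stood at 0.760, 0.393 and 0.563 CP10K in wild-type and at 0.941, 0.644 and 0.826 CP10K in SIRT7-/- mice, and Stab1 at 0.948, 0.637 and 0.538 CP10K and at 0.413, 0.380 and 0.678 CP10K. For all 3 genes the genotypes overlapped. A Stab2 UMI was seen in 18.7% of the 3715 macrophage-like cells at a median of 2267 UMIs per cell, against 0.608% of T and NK-like cells (median 1573 UMIs), and after thinning to 1000 UMIs in 8.54% against 0.322%.

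The members' UMIs did not keep the same proportions in both classes. SIRT7-/- mouse 1 gave 573 Stab2 UMIs for 37 Clec4g UMIs in macrophage-like cells, a ratio of 15.5, and 162 for 337 in endothelial-like cells, a ratio of 0.481. In the other mice with a Clec4g UMI in macrophage-like cells the Stab2 to Clec4g ratio was 7.0 (wild-type mouse 3), 15.6 (SIRT7-/- mouse 2) and 10.0 (SIRT7-/- mouse 3), against 0.639, 0.507 and 0.702 in their endothelial-like cells. Wild-type mice 1 and 2 gave 19 and 8 Stab2 UMIs and 0 Clec4g UMIs in macrophage-like cells. The ratio was thus higher in macrophage-like cells in every mouse in which it could be formed.

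**Figure D2:**
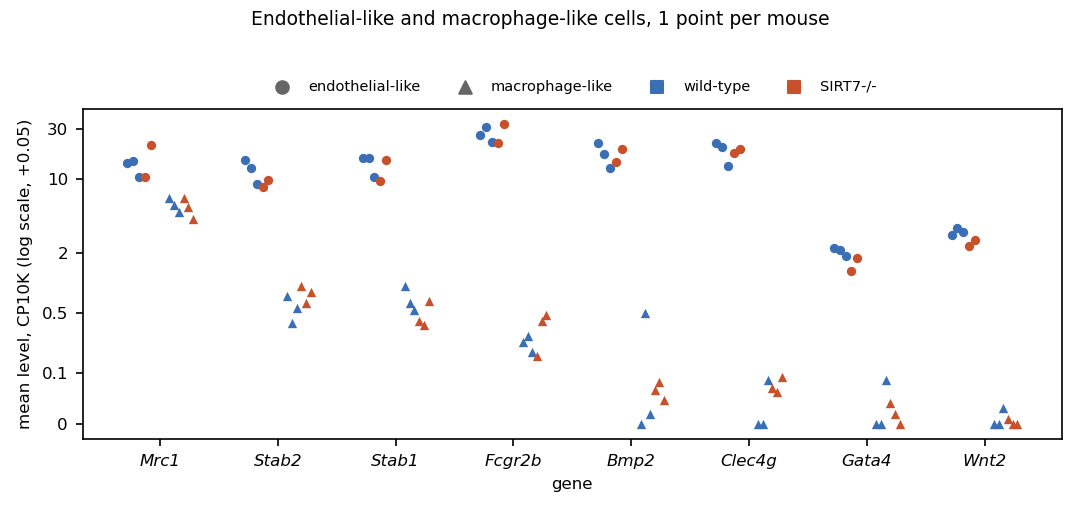
Mean level (CP10K, log scale with 0.05 added) of 8 members in endothelial-like cells (circles, 5 mice) and macrophage-like cells (triangles, 6 mice), with wild-type mice in blue and SIRT7-/- mice in orange. Mrc1 lies between 4.18 and 6.67 CP10K in macrophage-like cells, the stabilins lie between 0.380 and 0.948 CP10K, and Clec4g lies at or below 0.0888 CP10K.

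The remaining members were low outside endothelium, with a few exceptions. Fcgr2b averaged 0.875 CP10K in dendritic-like cells, with a UMI in 12.6% of them (7.84% after thinning) against 3.4% of T and NK-like cells (2.0% after thinning). In B-like cells, which are known to carry this receptor, it gave 10 UMIs in 7 of 161 cells (4.35%, and 0.840% after thinning), not above that background after thinning. The leading genes of the dendritic-like class included Prss34, Mcpt8 and F13a1, which were not on its marker list, beside Siglech, Cd209a and Bcl11a. No monocyte or basophil list was used, and whether that class mixes cell types was not tested. Bmp2 and Gata4 stood at 1.16 and 0.568 CP10K in the 39 stellate-like cells, which rest on 9 and 4 UMIs. Stab1, Stab2 and Lyve1 were seen in 0 of those 39 cells, which allows a share of up to 7.69%, and in 0 of 161 B-like cells (up to 1.86%).

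Rspo3, which encodes R-spondin 3, an amplifier of Wnt signalling, was the member with its highest level outside endothelium. The 39 stellate-like cells held 37 Rspo3 UMIs, with at least 1 in 21 cells (53.8%, exact 95% interval 37.2% to 69.9%) and a mean of 5.94 CP10K. No mouse had 20 stellate-like cells, and the means of 13.2, 7.44 and 3.97 CP10K in SIRT7-/- and 2.66, 3.81 and 0 CP10K in wild-type mice rest on 7, 6 and 11 and on 2, 12 and 1 cells. In endothelial-like cells Rspo3 gave 61 UMIs in 21 cells: 0 of 67 cells in wild-type mouse 1 (which allows up to 4.48%), 8 cells in mouse 2 and 6 in mouse 3, then 6, 1 and 0 cells in SIRT7-/- mice 1, 2 and 3. Wild-type mouse 2 supplied 40 of the 61 UMIs, with single cells at 21 and 10 UMIs.

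Pooled over mice, the endothelial-like cells with a Rspo3 UMI often carried other genes of the endothelium around the central vein. Of the 21 cells, 12 (57.1%) had a Wnt2 UMI, 11 a Cdh13 UMI (52.4%), 9 a Thbd UMI (thrombomodulin; 42.9%) and 7 a Wnt9b UMI (33.3%). Among the 498 cells without a Rspo3 UMI, the shares were 27.7% for Wnt2, 8.84% for Cdh13, 6.63% for Thbd and 1.41% for Wnt9b, at nearly the same median depth (1387 against 1356.5 UMIs). Stab2 was seen in 52.4% of the cells with and 69.5% of the cells without a Rspo3 UMI. A Wnt2 UMI accompanied Rspo3 in 11 of 14 wild-type and 1 of 7 SIRT7-/- cells. Those shares were 78.6% and 14.3%, against 33.9% and 21.6% of cells without a Rspo3 UMI. All 7 cells with Rspo3 and Wnt9b were wild-type. Cdh13 and Thbd were more frequent in the cells with a Rspo3 UMI in both genotypes. Median depth with against without Rspo3 was 1738.5 against 1907.5 UMIs in wild-type and 1159 against 1015 in SIRT7-/- cells. These counts are few, come from 4 mice and carry no test.

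Cells with a Wnt2 or Rspo3 UMI made up 159 of 519 (30.6%), and they were deeper than the rest (median 1822 against 1236.5 UMIs). Genes of pericentral endothelium stood higher in them: Kit, a receptor tyrosine kinase, at 4.48 against 2.49 CP10K, Thbd at 1.35 against 0.276 CP10K and Cdh13 at 1.76 against 0.412 CP10K. Genes of the portal side stood lower, with Dll4, a Notch ligand, at 0.231 against 1.22 CP10K and Ntn4, a netrin, at 0.627 against 2.0 CP10K. Kit ran the other way in SIRT7-/- mouse 1 (1.33 against 1.76 CP10K), Dll4 in wild-type mouse 1 (0.914 against 0.675 CP10K) and Thbd in the 8 cells of SIRT7-/- mouse 3.  Of the scavenger genes, Clec4g stood at 19.0 against 18.2 CP10K, Fcgr2b at 25.4 against 26.2 CP10K and Mrc1 at 14.8 against 12.4 CP10K. Stab1 stood at 15.0 against 11.8 CP10K, Stab2 at 12.3 against 9.96 CP10K and Lyve1 at 1.88 against 2.35 CP10K, the last with no common direction over mice.

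The comparison of SIRT7-/- with wild-type endothelial-like cells asked whether the loss of SIRT7 was accompanied by altered levels of these genes. Of the 10 members, Lyve1 passed the threshold of an adjusted p of 0.05 (limma on log2 mouse means, Benjamini-Hochberg adjustment over all genes) and 9 did not. Over all 10655 genes tested, 0.310% passed, 8 (0.0751%) higher and 25 (0.235%) lower in SIRT7-/-. The members had a median log2 fold change of -0.01 against -0.05 for all genes, with 5 above and 5 below 0. By the linear means 7 were lower in SIRT7-/-, since the sign differed between the linear means and the log scale for Clec4g and Rspo3. Nothing in the labels says more about the mice than their genotype and age. For each gene, limma draws the spread between mice towards that of the other genes. The limma SEs and p-values rest on that drawn value and not on the gene's own spread alone.

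Lyve1 was higher in SIRT7-/- endothelial-like cells. Its mean level was 1.75, 0.479 and 0.783 CP10K in wild-type mice 1, 2 and 3 (31, 10 and 9 UMIs) and 3.83 and 2.69 CP10K in SIRT7-/- mice 1 and 2 (77 and 24 UMIs). Both SIRT7-/- mice stood above all wild-type mice, as did SIRT7-/- mouse 3 at 2.29 CP10K (6 UMIs), and wild-type mouse 1 lay closest to them. The means were 1.0 ± 0.665 (SD, n = 3) and 3.26 ± 0.80 CP10K (SD, n = 2), a log2 fold change of 1.82 with an SE of 0.41 (limma adjusted p = 0.0345). A two-sided exact permutation of the mice gave p = 0.2, which is the lowest possible with 3 against 2.

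The share of endothelial-like cells with a Lyve1 UMI was 26.9%, 7.48% and 9.09% in wild-type and 28.1% and 28.1% in SIRT7-/- mice, and 37.5% in the 8 cells of mouse 3. After thinning to 1000 UMIs the shares were 15.2%, 4.26% and 3.92% in wild-type and 22.5%, 13.9% and 14.3% in SIRT7-/- mice, so wild-type mouse 1 then lay within the SIRT7-/- range. Median depth was 2532, 1897 and 1055.5 UMIs in wild-type and 946.5, 1164 and 2142 UMIs in SIRT7-/- mice, and the genotypes overlapped. Among cells with a Lyve1 UMI, 87.9% also had a Clec4g UMI and 74.8% a Stab2 UMI, against 85.2% and 67.2% of cells without one. Prox1, a lymphatic transcription factor, was seen in 4.67% and 5.10% of them.

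**Figure D3:**
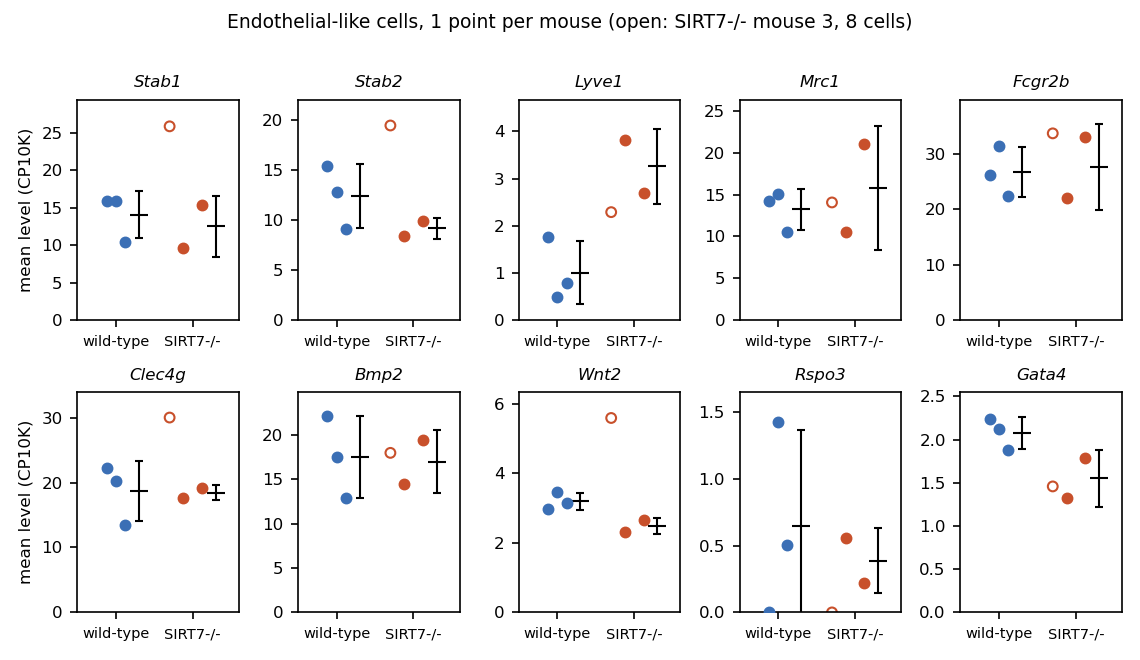
Mean level (CP10K, axes from 0) of each gene in endothelial-like cells of each mouse, with the mean ± SD of 3 wild-type (blue) and 2 SIRT7-/- mice (orange) as black bars and SIRT7-/- mouse 3 (8 cells) as an open circle outside that mean. Lyve1 is the panel in which all SIRT7-/- points, from 2.29 to 3.83 CP10K, lie above the wild-type points, the highest at 1.75 CP10K.

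The Lyve1 call depended on the settings. The log2 fold change stayed positive in all 16 alternatives, between 0.56 and 2.30, and passed the threshold in 6 of them. With 1 mouse fewer the fold change was 2.30 without wild-type mouse 1 (limma adjusted p = 0.011), 1.41 without wild-type mouse 2 (0.179) and 1.74 without wild-type mouse 3 (0.178). It was 1.57 without SIRT7-/- mouse 1 (0.166) and 2.07 without mouse 2 (0.122), fits in which the 1 SIRT7-/- mouse left is assumed to vary like the others. With mouse 3 added it was 1.66 (0.299). Macrophage markers summed to 0.399, 1.38 and 2.43 CP10K in wild-type and 6.37 and 2.44 CP10K in SIRT7-/- endothelial-like cells. Without the cells that held at least 3 of those markers the Lyve1 difference was 1.82 (adjusted p = 0.0336). Neutrophil markers summed to 18.8 CP10K in SIRT7-/- mouse 1 and to at most 0.878 CP10K in the others, and their part in the result was not tested.

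**Figure D4:**
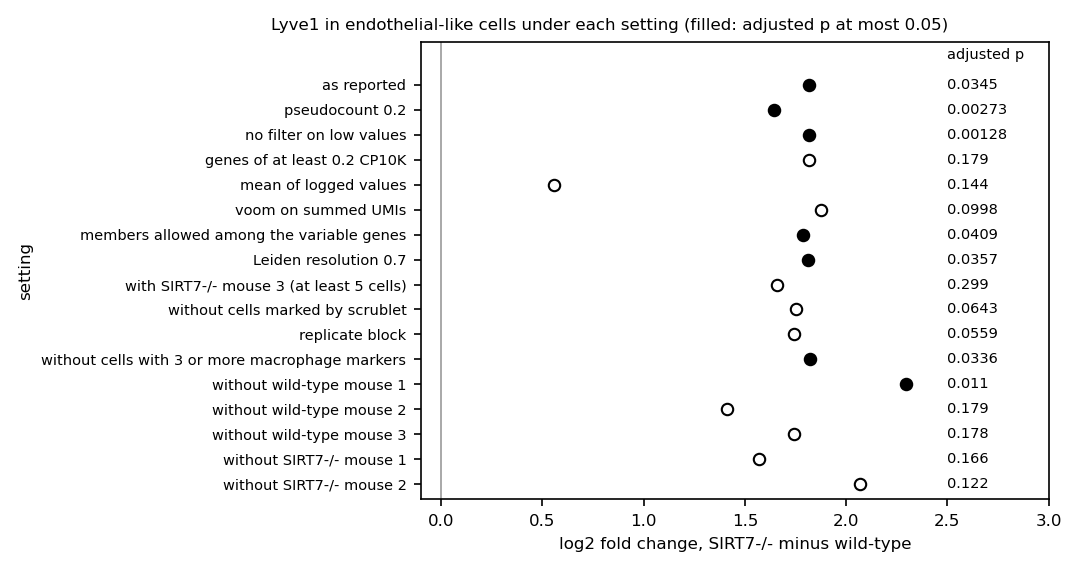
Log2 fold change of Lyve1 in endothelial-like cells, SIRT7-/- minus wild-type, as reported and under 16 alternatives, with the limma adjusted p at the right and filled points where it is at most 0.05. All points lie above 0, from 0.56 to 2.30.

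In macrophage-like cells Lyve1 did not pass the threshold, and its values ran in the other direction. The level was 0.0273, 0.173 and 0.333 CP10K in wild-type and 0.00967, 0.0062 and 0.0791 CP10K in SIRT7-/- mice, which overlap (log2 fold change -1.31 ± 0.62 SE, limma adjusted p = 0.481). Wild-type mouse 3 gave 35 Lyve1 UMIs and the other mice 1 to 9 each, and in wild-type mouse 3 they came mainly from 3 cells with 19, 9 and 6 UMIs. Those 3 cells had C1qa UMIs (a complement gene of resident macrophages) and Timd4 UMIs but 0 UMIs of Clec4f, a Kupffer cell lectin, and 0 of Stab2 and Clec4g. The difference between the Lyve1 effects of the 2 classes, tested in the 5 mice with both, was 3.51 (SE 1.06, limma adjusted p = 0.971 over 9214 genes, of which 0 passed).

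Among the other scavenger genes, Stab2 had the lowest fold change. It stood at 15.4, 12.8 and 9.10 CP10K in wild-type and at 8.45 and 9.93 CP10K in SIRT7-/- mice, with 19.5 CP10K in mouse 3. Wild-type mouse 3 lay between the SIRT7-/- mice (log2 fold change -0.41 ± 0.32 SE, limma adjusted p = 0.797). Stab1 stood at 15.8, 16.0 and 10.5 against 9.67 and 15.4 CP10K, and at 25.9 CP10K in mouse 3, which turns the sign when it is added (-0.18 ± 0.31 SE without it, 0.18 with it).

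Mrc1 stood at 14.2, 15.1 and 10.5 CP10K in wild-type and at 10.6 and 21.0 CP10K in SIRT7-/- endothelial-like cells (0.19 ± 0.32 SE), and SIRT7-/- mouse 2 was the highest of all. Fcgr2b stood at 26.2, 31.4 and 22.4 against 22.1 and 33.1 CP10K (0.03 ± 0.30 SE). Clec4g stood at 22.2, 20.3 and 13.4 against 17.6 and 19.2 CP10K (0.01 ± 0.30 SE). The genotypes overlapped for all 3, limma adjusted p-values were 0.921, 0.985 and 0.995, and each fold change changed sign in at least 2 alternatives.

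Among the angiocrine genes, Bmp2 showed the SIRT7-/- mice inside the wild-type range. Its level was 22.1, 17.5 and 12.9 CP10K in wild-type and 14.5 and 19.5 CP10K in SIRT7-/- mice (log2 fold change -0.02 ± 0.31 SE, limma adjusted p = 0.989). Wnt2, a ligand of the central-vein side, stood at 2.97, 3.47 and 3.13 against 2.32 and 2.66 CP10K, both SIRT7-/- mice below all wild-type mice, but at 5.59 CP10K in mouse 3 (12 UMIs). The Wnt2 difference did not pass the threshold (-0.35 ± 0.33 SE, limma adjusted p = 0.840), and with mouse 3 it was 0.033.

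Gata4 stood at 2.24, 2.12 and 1.88 CP10K in wild-type and at 1.32, 1.78 and, in mouse 3, 1.46 CP10K in SIRT7-/- mice. All SIRT7-/- values were below all wild-type values, and the difference did not pass the threshold (log2 fold change -0.42 ± 0.35 SE, limma adjusted p = 0.809). Rspo3 stood at 0, 1.43 and 0.507 against 0.559 and 0.218 CP10K and could not be resolved (0.23 ± 1.70 SE, limma adjusted p = 0.982). In all, 3 of the 10 members (Lyve1, Wnt2 and Gata4) did not overlap between 3 wild-type and 2 SIRT7-/- mice, against 22.4% of all genes tested.

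**Figure D5:**
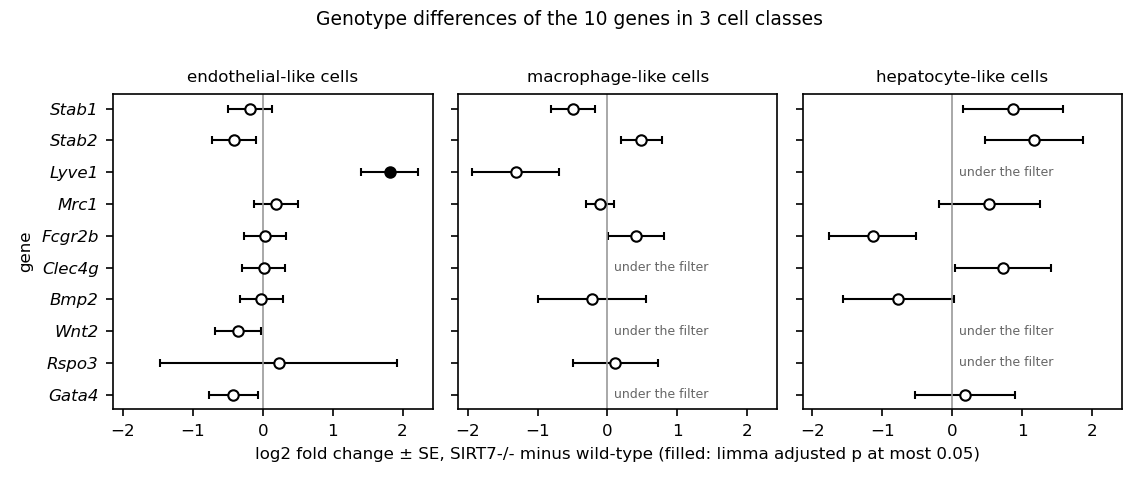
Log2 fold changes ± SE (SIRT7-/- minus wild-type, 0.05 CP10K added) of the 10 genes in endothelial-like, macrophage-like and hepatocyte-like cells, with filled points where the limma adjusted p is at most 0.05 and a note where the mean level was under 0.05 CP10K. Lyve1 in endothelial-like cells, at 1.82, is the single filled point.

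The same genes were compared in macrophage-like and hepatocyte-like cells. In macrophage-like cells 7 members were tested, 0 passed the threshold and 0 had genotypes that did not overlap, while 0.201% of 9943 genes passed and 17.0% did not overlap. Stab2 and Stab1 had fold changes of 0.48 ± 0.29 SE and -0.49 ± 0.31 SE (limma adjusted p = 0.588 and 0.611), and Mrc1 of -0.11 ± 0.21 SE (0.896). At an unadjusted p under 0.05 the members also gave 0, against 10.6% of genes. With voom on summed UMIs 0 of these members passed, against 16 of 9943 genes. In hepatocyte-like cells 7 members were tested with limma and 0 passed, against 0.233% of 10315 genes, and 0 had an unadjusted p under 0.05, against 10.3%. With voom on summed UMIs 0 of the members passed there, against 85 of 10315 genes. The members' levels were at most 0.319 CP10K in a genotype. Stab2 and Fcgr2b did not overlap, with fold changes of 1.17 ± 0.71 SE and -1.14 ± 0.62 SE (limma adjusted p = 0.589 and 0.554). The share of genes that did not overlap there was 16.7%, and the median over all genes was 0.20.

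Genes with related roles in endothelial-like cells gave 0 calls with limma in each of the 7 lists, while 0 to 3 genes of a list had an unadjusted p under 0.05. Of 14 other endocytic and scavenger receptor genes, 8 were lower and 6 higher, with a median log2 fold change of -0.07 against -0.05 for all genes. Ehd3, an endocytic recycling protein, stood at 30.5 ± 2.91 against 23.7 ± 5.77 CP10K, Ctsl, a lysosomal protease, at 12.7 ± 2.73 against 15.9 ± 1.1 CP10K, Cd36, a fatty acid and lipoprotein receptor, at 9.13 ± 2.95 against 12.1 ± 1.71 CP10K and Dab2, a clathrin adaptor, at 9.0 ± 1.82 against 7.83 ± 1.5 CP10K (SD, wild-type n = 3, SIRT7-/- n = 2). Their limma adjusted p-values were 0.795, 0.832, 0.777 and 0.921.

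Of 15 other angiocrine ligand genes, 11 were tested and 7 were higher, with a median of 0.16. Sema6a, Tgfb1, Hgf and Kitl had the highest levels, and Hgf, the hepatocyte mitogen, stood at 1.05 ± 0.506 against 2.51 ± 2.03 CP10K (limma adjusted p = 0.693), where SIRT7-/- mouse 2 alone was high at 3.95 CP10K. Of 16 endothelial transcription factor genes, 15 were tested and 9 were lower, with a median of -0.04. Maf, a factor of the sinusoidal programme with the highest level, stood at 27.2 ± 5.07 against 26.3 ± 3.58 CP10K (adjusted p = 0.982), and Klf2, Nr2f2 and Meis2 had fold changes of -0.04, 0.06 and -0.45. Of 14 other sinusoidal endothelial genes, 8 were lower, with a median of -0.12. Dnase1l3, a secreted DNase, stood at 31.1 ± 1.26 against 24.3 ± 3.63 CP10K (adjusted p = 0.802), with both SIRT7-/- mice below all wild-type mice, and Kdr, Gpr182 and Nrp1 had fold changes of -0.20, -0.23 and -0.18.

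Of 8 genes of pericentral endothelium 7 were tested, 0 passed the threshold, 5 were lower and 2 higher. The median log2 fold change was -0.99, and 3 had an unadjusted p under 0.05, against 7.62% of all genes. This list was chosen with earlier results of these data known, so its share is no independent test. Kit stood at 2.73, 5.69 and 4.06 CP10K in wild-type and 1.67 and 2.31 CP10K in SIRT7-/- mice (-1.0 ± 0.34 SE, limma adjusted p = 0.362), which did not overlap. Thbd stood at 0.813 ± 0.189 against 0.381 ± 0.0784 CP10K (adjusted p = 0.651) and Wnt9b at 0.279 ± 0.207 against 0.0323 ± 0.0457 CP10K (adjusted p = 0.640), while Fabp4 and Cdh13 had fold changes of 0.28 and -0.70. Of 8 periportal endothelial genes, 5 were lower, with a median of -0.25, and Ntn4 and Ltbp4 had unadjusted p under 0.05 (-0.75 ± 0.37 SE and -0.71 ± 0.35 SE, adjusted p = 0.649 and 0.651), while Msr1 and Efnb1 had fold changes of -0.18 and -0.32.

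Genes of continuous capillaries, which sinusoidal endothelium gains when it loses its fenestrae, gave 9 tested of 12, with 5 higher and a median of 0.29. Ly6a stood at 2.44, 2.56 and 3.64 CP10K in wild-type and at 5.13 and 24.3 CP10K in SIRT7-/- mice, with both SIRT7-/- mice above and mouse 2 far above the rest (1.96 ± 0.63 SE, limma adjusted p = 0.555). Cd34, a sialomucin of capillaries, stood at 0.109 ± 0.103 against 0.565 ± 0.233 CP10K (adjusted p = 0.415). Emcn, another endothelial sialomucin, ran lower, at 2.40 ± 0.233 against 1.38 ± 0.215 CP10K (adjusted p = 0.633), and Col4a1 and Cd9 had fold changes of -0.32 and -0.32. Cd34 was named after its values were seen, as were Wnt9b above and Slc1a2, Lect2 and Lgr5 below.

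Other genes past the threshold in endothelial-like cells lay outside these lists. Higher in SIRT7-/- were Ly6d (log2 fold change 3.75), the interferon-response genes Irf7 (2.77) and Ifi44 (2.41), Aspg (2.55) and the immunoglobulin light chain gene Igkc (1.85). Lower were, among others, Pcyt2 (-4.31), Cyp2c69 (-3.74), Cyp3a44 (-3.64) and Cyp2c50 (-3.34), enzymes abundant in hepatocytes. The 12 hepatocyte markers summed to 153, 136 and 88.3 CP10K in wild-type endothelial-like cells and to 103 and 25.5 CP10K in those of SIRT7-/- mice 1 and 2, and their part in the genes that were lower was not tested. B cell markers summed to 0, 0 and 0.202 CP10K in wild-type and to 0.994 and 0.658 CP10K in SIRT7-/- endothelial-like cells. Dendritic markers summed to 0.813, 0.721 and 2.85 against 2.58 and 3.4 CP10K, T and NK markers to 1.78, 0.394 and 8.88 against 6.48 and 9.05 CP10K, and plasma cell markers to 0.123, 0.0802 and 0.359 against 0.234 and 0.346 CP10K. The part of those cells in the genes that were higher, among them Igkc, a transcript of B and plasma cells, was not tested.

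The receptors and targets of the ligands were read in hepatocyte-like cells. This class held 40.02%, 19.8% and 46.5% of the cells of both hepatocyte clusters in wild-type and 44.2%, 19.6% and 80.9% in SIRT7-/- mice, the rest being in the unnamed cluster led by Mup17, and the part of this split in the values was not tested. Of 16 receptor and antagonist genes, all were tested, 8 were higher and 8 lower, 0 passed, and the median was -0.08 against 0.20 for all genes. Hfe2, which encodes hemojuvelin, the BMP co-receptor for hepcidin induction, stood at 0.361, 0.911 and 0.284 CP10K in wild-type and at 1.38, 2.18 and 1.68 CP10K in SIRT7-/- mice, all above the wild-type mice (1.79 ± 0.44 SE, limma adjusted p = 0.102). The Wnt co-receptor gene Lrp6 also did not overlap, at 0.523 ± 0.245 against 1.24 ± 0.463 CP10K (adjusted p = 0.346). The R-spondin receptor genes Lgr4 and Lgr5 had fold changes of -0.63 and -1.60 (adjusted p = 0.670 and 0.476) and Rnf43, an antagonist, of 0.45.

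Of 12 pericentral Wnt target genes, 11 were tested, 7 were lower, 0 passed and the median was -0.61 against 0.20 for all genes. The zone of the hepatocyte-like class was not assigned. Its leading genes included G6pc, Abcc2, Igfbp1 and Cyp7a1, and those of the unnamed cluster included Mup17, Cyp2c50 and Sult2a1. The paper divided hepatocytes into a pericentral and a periportal cluster, and which of them this class matches was not tested. Cyp2e1, a pericentral cytochrome, stood at 8.75, 14.3 and 20.5 CP10K in wild-type and 7.45, 6.23 and 4.77 CP10K in SIRT7-/- mice, all below the wild-type mice (-1.17 ± 0.39 SE, limma adjusted p = 0.302). Oat, Rgn, Slc1a2 and Lect2 were likewise below without overlap (-1.42, -1.15, -2.20 and -1.28, limma adjusted p from 0.186 to 0.311). That makes 5 of 11 genes, against 16.7% of all genes. The list was chosen with earlier results of these data known, so this share is no independent test. Glul, glutamine synthetase, ran the other way, at 1.18 ± 0.772 against 2.41 ± 1.36 CP10K, with overlap (1.04 ± 0.46 SE, adjusted p = 0.442).

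Of 10 BMP target genes in hepatocyte-like cells, 9 were tested and 0 passed, with 6 higher and a median of 0.31. Hamp, the hepcidin gene, stood at 74.4, 44.7 and 31.3 CP10K in wild-type and at 32.8, 20.3 and 50.1 CP10K in SIRT7-/- mice, which overlapped (-0.55 ± 0.42 SE, limma adjusted p = 0.692). Hamp2, Id2 and Id3 had fold changes of -1.12, -0.41 and 0.45.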

How the data were processed

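Livers from 3 animals of each genotype were profiled with 10x Genomics Chromium 3′ chemistry. Cell Ranger 6.0.0 and mm10 are named in the submitters' processing notes. In Scanpy the authors removed cells with few genes or a high mitochondrial share, and the cells deposited had at least 500 genes and at most 5.01% mitochondrial UMIs. The deposited values are the natural log of 1 plus UMIs per 10000 in each cell, as the authors normalized them. They were turned back to CP10K and to UMIs, which left each of the 12961041 values above 0 no more than 0.02 from an integer. Depth per library is given in the report.

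Cells were clustered on 1000 variable genes without the 10 members (9 of which were among the variable genes), with 50 components, 3 neighbours per mouse and Leiden resolution 0.35 (leidenalg 0.10.2). Clusters were rebuilt and named from marker lists, so classes may differ from those of the study. A cluster of 1762 cells led by hemoglobin genes and Mup17 was left unnamed and out of the comparisons, and the hepatocyte-like class is the other hepatocyte cluster. Scrublet (in scanpy 1.11.5) marked 46 of 11610 cells (0.396%), too few to be taken as working, and doublets were kept. Of the 519 endothelial-like cells it marked 11 (2.12%), all in wild-type mice 1 and 2. Their removal left 61 and 102 cells in those mice.

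Per class, mouse means of CP10K were tested on log2(mean + 0.05) with limma 3.58.1 (trend and robust, two-sided, Benjamini-Hochberg, threshold 0.05), using mice with 20 or more cells and genes averaging 0.05 CP10K or more. The study's own per-cell model was not used. Fold changes are on that scale, which understates low genes. The procedure was run on simulated data with a fixed spread between mice, which does not measure its error rates in these data. Exact permutation tests used scipy 1.17.1. Levels by class and by cell are descriptions without tests, since the classes come from the same cells.

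The members and lists were chosen with earlier results of these data known. Named were all members, list genes that passed plus the 4 most abundant of each list, the 10 non-members with the highest ratio of endothelial-like to other classes, and up to 5 genes per direction that passed, averaged 0.5 CP10K or more and did not overlap. A gene that this rule named is not reported here. Intervals are exact binomial (95%) and limits at 0 use 3 counts, for counting error only. Reads of overlapping genes could not be separated. Alternatives were another pseudocount, other filters, logging before averaging, voom, other clusterings, a lower cell minimum, removal of doublets or of cells with macrophage markers, a replicate block, thinning, and leaving out each mouse.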

Additional observations from a re-analysis of the deposited data

How the results depend on the processing

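Low cell numbers limited the endothelial comparison to 3 against 2 mice, and the cause of each change below was not tested. Among recomputed levels and fold changes of the members, 334 kept direction and side of the threshold, 33 changed sign, 10 lost a call and 3 moved (shares of cells with a UMI after thinning, averaged over mice, of 80.9% for Fcgr2b, 78.6% for Clec4g and 73.1% for Bmp2). The genes called in endothelial-like cells (33) numbered 53 with a pseudocount of 0.2, 88 without a filter, 10 with a filter of 0.2 CP10K, 3 with voom, 4 with mice of at least 5 cells, and 7 (without wild-type mouse 1) to 275 (without SIRT7-/- mouse 1) when a mouse was left out. Those in macrophage-like cells (20) numbered 1 without a filter, 55 with logging before averaging, and 1 to 99 with a mouse left out. Those in hepatocyte-like cells (24) numbered 40 with the pseudocount of 0.2, 10 without a filter, 9 with the stricter filter, 13 with logging first, 85 with voom, and 5 to 102 with a mouse left out. Lyve1 in endothelial-like cells lost its call in 10 of 16 alternatives, among them the filter of 0.2 CP10K (adjusted p = 0.179), logging first (0.144), voom (0.0998), mice of at least 5 cells (0.299) and removal of cells marked by Scrublet (0.0643).

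Correlations between the deviations of same-numbered mice were -0.04 to 0.03 in endothelial-like, -0.11 to 0.07 in macrophage-like and -0.17 to -0.06 in hepatocyte-like cells. Deviations within a genotype cancel out, so with so few mice these values cannot decide whether the mice were paired. The replicate block gave 67, 141 and 38 calls in endothelial-like, macrophage-like and hepatocyte-like cells, a Lyve1 adjusted p of 0.0559, and turned Fcgr2b to -0.086 and Clec4g to -0.21.

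Other fold changes that changed sign were small in the reported fit or rested on few UMIs. In endothelial-like cells, mice of at least 5 cells gave 0.18 for Stab1, 0.0077 for Bmp2, 0.033 for Wnt2 and -0.78 for Rspo3. Logging first gave -0.064 for Mrc1, -0.17 for Fcgr2b, -0.26 for Clec4g and -0.069 for Rspo3. Voom gave -0.066 for Fcgr2b and -0.13 for Clec4g, members among the variable genes -0.0039 for Clec4g, removal of cells with macrophage markers 0.0098 for Bmp2, and the pseudocount of 0.2 -0.12 for Rspo3. In macrophage-like cells voom gave 0.71 for Bmp2 and -2.32 for Rspo3, and in hepatocyte-like cells -0.12 for Stab1, while logging first gave -0.00034 for Gata4. With a mouse left out, endothelial-like fold changes ran from -0.51 to 0.16 for Stab1, -0.31 to 0.68 for Mrc1, -0.26 to 0.32 for Fcgr2b, -0.21 to 0.16 for Clec4g, -0.24 to 0.19 for Bmp2 and -1.16 to 1.28 for Rspo3. Those in macrophage-like cells ran from -0.26 to 0.066 for Mrc1 and -0.28 to 0.47 for Rspo3, and Gata4 in hepatocyte-like cells from -0.29 to 0.68.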
